A study of Mus musculus with 12 samples.

Results

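The genes described here carry long-chain fatty acids into mitochondria and begin their breakdown there. They are 10 of the 22471 features in the deposited tables and were chosen by name: Cpt1a, Cpt1b, Cpt2 and Slc25a20 of the carnitine shuttle, Mlycd, which removes the shuttle's inhibitor, and Acadvl, Acadl, Acadm, Hadha and Acaa2 of the mitochondrial beta-oxidation spiral. All 10 were found once by symbol in every library, and all 10 passed the filter on low counts in each comparison.

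Primary hepatocytes from young male C57BL/6J mice were cultured, and their polyadenylated RNA was sequenced. The 12 libraries fell into 4 groups of 3. The control group (labelled Con) received neither agent. The OA group (ConOA) received oleic acid, a monounsaturated fatty acid bound to bovine serum albumin, as a model of steatosis in the dish. The BBR group received benzbromarone, a uric acid-lowering drug, and the BBR+OA group (BBROA) received both agents together. Each agent was given at a single concentration for a single period, and whether control wells received albumin was not given in the sources used here. The labels name the tissue as liver, whereas the study's methods describe cultured hepatocytes. The series' design text also speaks of a high-fat diet for the OA groups, where the methods describe oleic acid added to the medium, and the account here follows the methods. The series' design calls the replicates biological, but whether they came from separate mice or from wells of one preparation is not stated. The p-values below therefore measure the spread between these samples, which may be technical.

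The carnitine shuttle works in steps. CPT1 on the outer mitochondrial membrane joins a long-chain acyl group to carnitine, the carrier encoded by Slc25a20 exchanges the product across the inner membrane, and CPT2 restores the acyl-CoA inside. CPT1 is inhibited by malonyl-CoA, the first committed product of fatty acid synthesis, so that entry and synthesis are opposed. In the spiral, an acyl-CoA dehydrogenase introduces a double bond, water is added, the hydroxyl group is oxidized and a thiolase releases acetyl-CoA. In liver this pathway supplies energy and ketone bodies during fasting, and several of its genes are known targets of PPARs, nuclear receptors that respond to fatty acids. The study asked whether BBR acts on hepatocytes through PPAR signaling, with and without OA.

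Levels are given as CPM, estimated counts divided by library size and scaled by the TMM method, with the SD over 3 libraries. Total estimated counts ran from 15485508 (BBR replicate 2) to 23668379 (control replicate 3) per library, so that 1 count was worth 0.0423 to 0.0646 CPM. Together the 10 genes took 0.0972%, 0.0990% and 0.0973% of counts in the control libraries and 0.0917%, 0.0921% and 0.0947% in the OA libraries. They took 0.122%, 0.125% and 0.124% in the BBR libraries and 0.121%, 0.127% and 0.124% in the BBR+OA libraries. The share was thus higher in all 6 libraries that contained BBR than in all 6 that did not. On the FPKM values, which are scaled by length and allow genes to be compared, the control means ran from 0.777 FPKM for Cpt1b and 8.62 FPKM for Mlycd to 111 FPKM for Acadm and 112 FPKM for Acaa2, with Slc25a20 (14.1), Cpt1a (14.98), Cpt2 (23.1), Acadl (41.1), Acadvl (49.7) and Hadha (57.4) between them. Changes are log2 fold changes with their standard error (SE), from edgeR's quasi-likelihood test across all genes tested, and a gene is called higher or lower at a Benjamini-Hochberg adjusted p under 0.05.

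The upstream sequences of the genes were examined first, because PPARs with their partner RXR bind a repeat of the letters AGGTCA spaced by a single base. An upstream window of 250 bases before the RefSeq (GRCm38.p6) start site was examined for 8 of the 10 genes. Windows of Cpt1b and Acaa2 were not examined. Printed here, 5′ to 3′ on the strand of the gene, are the windows of Cpt1a, Acadl and Acadvl, the 3 genes raised both by BBR and by OA, and of Hadha, whose window faces that of its partner subunit Hadhb. Bases that GENCODE places in an exon were taken off the printed sequences. Motifs and GC content were read from the full 250 bases. Capitals mark AGGTCA on either strand, so that TGACCT is the same motif on the opposite strand.
Cpt1a, chr19:3323051-3323284, plus strand: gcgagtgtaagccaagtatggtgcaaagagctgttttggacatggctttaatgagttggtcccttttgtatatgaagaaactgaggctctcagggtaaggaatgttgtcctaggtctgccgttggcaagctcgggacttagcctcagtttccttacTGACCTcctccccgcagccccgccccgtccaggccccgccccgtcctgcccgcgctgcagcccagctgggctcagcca
Acadl, chr1:66863310-66863559, minus strand: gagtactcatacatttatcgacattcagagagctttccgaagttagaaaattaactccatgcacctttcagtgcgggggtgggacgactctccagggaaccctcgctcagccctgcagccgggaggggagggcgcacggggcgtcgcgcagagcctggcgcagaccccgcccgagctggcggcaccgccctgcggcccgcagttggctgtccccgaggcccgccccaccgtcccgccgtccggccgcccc
Acadvl, chr11:70015429-70015678, minus strand: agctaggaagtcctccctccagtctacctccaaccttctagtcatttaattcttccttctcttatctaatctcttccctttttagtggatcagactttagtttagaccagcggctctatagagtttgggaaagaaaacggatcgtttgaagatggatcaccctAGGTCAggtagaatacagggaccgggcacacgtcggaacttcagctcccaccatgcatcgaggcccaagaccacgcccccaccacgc
Hadha, chr5:30155163-30155230, minus strand: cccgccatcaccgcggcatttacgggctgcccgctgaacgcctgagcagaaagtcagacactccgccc

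The RefSeq start of Cpt1a lies downstream of the first base of the gene in GENCODE, which belongs to a longer transcript, so the Cpt1a window falls in an intron of that transcript. The single AGGTCA lay 94 bases before the RefSeq start of Cpt1a, 87 bases before that of Acadvl and, in a window not printed, 249 bases before that of Acadm. These were 3 of 8 windows, and 14.0% of all 32851 upstream windows of the same length held the motif on either strand. The full repeat AGGTCANAGGTCA was in none of the 8 and in 0.0335% of all windows. A repeat this rare would seldom be met in 8 windows, so its absence says nothing about PPAR binding at these genes. The letters GGGCGG, on either strand, were in 5 of the 8 windows (Acadl, Cpt2, Hadha, Slc25a20 and Cpt1a) against 32.7% of all windows, with 4 copies upstream of Acadl. CCAAT, on either strand, was in 2 of the 8 windows (Cpt1a and Mlycd), against 33.9% of all windows. In Cpt1a it runs into the exon bases taken off the printed sequence. TATAAA was in none of the 8 windows, against 12.4% of all windows. The GC content of the 8 windows ran from 49.6% to 68.0%, beside a median of 52.4% over all windows. These matches describe the letters in a short window and do not show binding. The RefSeq starts of Hadha (chr5:30154980) and Hadhb (chr5:30155253) lie on opposite strands with 272 bases between them. Their GENCODE exons lie closer, with 85 bases between them (chr5:30155163-30155247).

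Cpt1a (ENSMUSG00000024900, GRCm38 chr19:3322334-3385733, plus strand, protein-coding) encodes the liver form of CPT1, the regulated entry step of the pathway. Its level was 62.6, 69.9 and 58.3 CPM in the control libraries, 86.0, 79.7 and 72.9 CPM with OA, 97.5, 85.6 and 91.5 CPM with BBR, and 137, 142 and 133 CPM with BBR+OA. The control libraries were lowest and the BBR+OA libraries highest, without overlap with any other group. BBR raised Cpt1a from 63.6 ± 5.88 to 91.5 ± 5.94 CPM (SD, n = 3), a log2 change of 0.54 (SE 0.065, edgeR adjusted p = 1.25e-05). In the presence of OA, BBR raised it from 79.5 ± 6.55 to 137 ± 4.29 CPM (SD, n = 3), a log2 change of 0.79 (SE 0.059, edgeR adjusted p = 2.56e-06). OA raised it as well, by 0.33 on the log2 scale without BBR (edgeR adjusted p = 0.00195) and by 0.58 with BBR (edgeR adjusted p = 6.29e-07). With both agents the level was 2.16-fold that of control. All neighbours in the order control, OA, BBR and BBR+OA were called different, but the step from OA to BBR was small (log2 difference 0.20 lower in OA, edgeR adjusted p = 0.0267), the libraries of OA and BBR overlapped, and the call was lost when any of OA replicate 2, OA replicate 3, BBR replicate 1 or BBR replicate 3 was left out (log2 values of -0.20, -0.14, -0.15 and -0.20).

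Cpt1b (ENSMUSG00000078937, chr15:89416405-89425863, minus strand, protein-coding) encodes the form of CPT1 known from muscle, heart and brown fat. It was low in these hepatocytes, at 31 to 87 counts per library, so that its values carry more counting error than those of the other genes. Its level was 1.56, 2.39 and 2.44 CPM in control, 2.26, 3.30 and 3.06 CPM with OA, 4.00, 4.18 and 3.55 CPM with BBR, and 4.20, 4.01 and 5.06 CPM with BBR+OA. Every library with BBR was above every library without it. BBR raised Cpt1b 1.83-fold, a log2 change of 0.87 (SE 0.198, edgeR adjusted p = 0.00344). In the presence of OA the log2 change was 0.61 (95% interval 0.22 to 0.998) and missed the threshold (edgeR adjusted p = 0.0728). With no filter on low counts it passed (edgeR adjusted p = 0.0364). OA gave 0.43 without BBR (edgeR adjusted p = 0.129) and 0.17 with BBR (edgeR adjusted p = 0.423).

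On the length-scaled FPKM values that the authors deposited, Cpt1b made up 3.77% to 7.84% of the sum of Cpt1a and Cpt1b in a library. The muscle and heart markers Myh6 and Myh7 were at 0 in all 12 libraries and Ckm did not exceed 0.08 FPKM, while the brown fat marker Ucp1 did not exceed 0.03 FPKM. Of the other 3 genes in the list of muscle, heart and fat markers, Adipoq did not exceed 0.04 FPKM, and Acta1 and Tnnt2 ran between 5.39 and 19.8 FPKM and between 0.60 and 5.50 FPKM, with neither called different between BBR and control. BBR in the presence of OA raised Acta1 (log2 change 0.72, edgeR adjusted p = 0.00574) and lowered Tnnt2 (-1.29, edgeR adjusted p = 0.0319), and OA alone raised Acta1 (0.62) and lowered Tnnt2 (-1.04). Their part in the levels of Cpt1b was not tested. The annotated span of Cpt1b lies within that of Gm44502, a gene on the same strand that joins it to its neighbour Chkb, so reads of such transcripts may be counted for Cpt1b. Chkb itself ran between 19.5 and 24.9 CPM and was not called in any of the 4 comparisons of one agent. With both agents against control it was called higher (log2 change 0.29, edgeR adjusted p = 0.00236).

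Slc25a20 (ENSMUSG00000032602, chr9:108662088-108684641, plus strand, protein-coding) encodes the carnitine-acylcarnitine carrier of the inner membrane. Its level was 26.9, 26.5 and 21.1 CPM in control, 24.7, 25.8 and 23.9 CPM with OA, 30.1, 27.4 and 24.6 CPM with BBR, and 31.4, 30.3 and 30.3 CPM with BBR+OA. The first 3 groups overlapped, and the BBR+OA libraries lay above all others. BBR alone gave a log2 change of 0.16 (95% interval -0.04 to 0.35, edgeR adjusted p = 0.241), and BBR in the presence of OA raised it by 0.30 (SE 0.064, edgeR adjusted p = 0.0148). This second call was lost when any one of the 3 BBR+OA libraries was left out, with adjusted p-values of 0.0580, 0.0561 and 0.0527. No pair of neighbouring groups in the order of its levels was called different.

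Cpt2 (ENSMUSG00000028607, chr4:107903981-107923610, minus strand, protein-coding) encodes the inner-membrane transferase that completes the shuttle. Its level was 54.4, 54.1 and 54.1 CPM in control, 51.7, 47.7 and 51.2 CPM with OA, 67.8, 69.2 and 66.1 CPM with BBR, and 67.3, 66.3 and 75.9 CPM with BBR+OA. The libraries fell into 2 ranges, with and without BBR, that did not overlap. BBR raised Cpt2 by 0.33 on the log2 scale without OA (SE 0.048, edgeR adjusted p = 9.05e-05) and by 0.47 with OA (SE 0.063, edgeR adjusted p = 5.48e-04). OA gave log2 changes of -0.10 (95% interval -0.22 to 0.01) without BBR and 0.04 (95% interval -0.08 to 0.16) with BBR, neither of them called.

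Mlycd (ENSMUSG00000074064, chr8:119394878-119411102, plus strand, protein-coding) encodes malonyl-CoA decarboxylase, which destroys the inhibitor of CPT1. It had 17.5, 19.8 and 17.2 CPM in control, 18.3, 17.0 and 17.0 CPM with OA, 20.3, 24.0 and 23.5 CPM with BBR, and 23.6, 26.6 and 26.03 CPM with BBR+OA. As for Cpt2, every library with BBR exceeded every library without it. BBR raised it by 0.32 (SE 0.083, edgeR adjusted p = 0.00844) without OA and by 0.54 (SE 0.076, edgeR adjusted p = 8.47e-04) with OA on the log2 scale. OA gave -0.05 and 0.17, neither of them called.

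**Figure D1:**
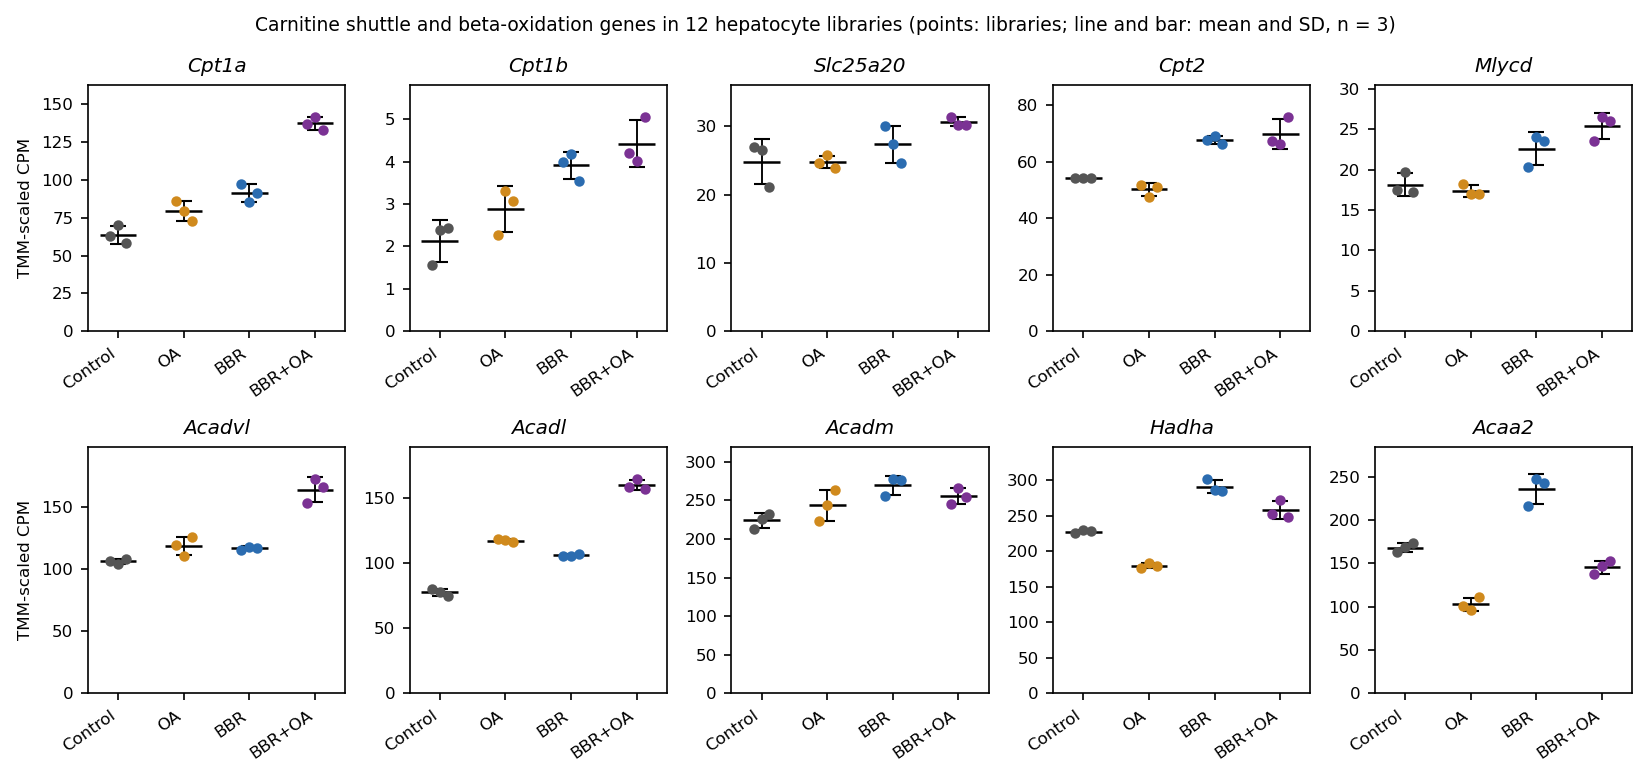
Level in CPM (linear axis from 0, a panel per gene) of the 10 genes in control, OA, BBR and BBR+OA hepatocytes. Points are single libraries, and the horizontal line with its error bar is the mean and SD of 3 libraries. Cpt1a climbed from 63.6 in control to 137 with both agents, whereas Acaa2 was lowest with OA (103) and highest with BBR (235).

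The acyl-CoA dehydrogenases carry out the first step of the spiral and differ in the chain length they prefer, very long for Acadvl, long for Acadl and medium for Acadm. Their responses differed from gene to gene. Acadl (ENSMUSG00000026003, chr1:66830839-66863277, minus strand, protein-coding) had 80.4, 78.0 and 74.9 CPM in control, 118, 118 and 116 CPM with OA, 106, 106 and 107 CPM with BBR, and 158, 165 and 157 CPM with BBR+OA. The 4 groups did not overlap, and each neighbour in the order control, BBR, OA and BBR+OA was called different from the next. The call between OA and BBR (log2 difference 0.15, edgeR adjusted p = 0.0172) was lost under upper-quartile scaling (0.0912) and without OA replicate 1 (0.0508) or BBR replicate 2 (0.0551). OA raised Acadl 1.52-fold without BBR (log2 change 0.60, SE 0.048, edgeR adjusted p = 2.84e-07) and 1.51-fold with BBR (log2 change 0.59, SE 0.041, edgeR adjusted p = 6.47e-08). BBR raised it 1.37-fold without OA (log2 change 0.46, SE 0.046, edgeR adjusted p = 2.20e-06) and 1.36-fold with OA (log2 change 0.45, SE 0.045, edgeR adjusted p = 4.14e-05). The interaction term, by which the BBR effect with OA exceeded that without it, had a 95% interval of -0.12 to 0.12 on the log2 scale, the narrowest of the 10 genes.

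Acadvl (ENSMUSG00000018574, chr11:70010183-70015411, minus strand, protein-coding) had 107, 104 and 108 CPM in control, 119, 111 and 126 CPM with OA, 115, 118 and 117 CPM with BBR, and 153, 173 and 166 CPM with BBR+OA. The BBR+OA libraries stood well above the rest, and OA and BBR overlapped and were not called different. BBR gave a log2 change of 0.14 without OA (SE 0.044, edgeR adjusted p = 0.0226) and of 0.46 with OA (SE 0.058, edgeR adjusted p = 3.68e-04). The first of these calls was lost when all 12 libraries were fitted together (edgeR adjusted p = 0.0609) and without control replicate 2 (0.0962), BBR replicate 2 (0.0699) or BBR replicate 3 (0.0625). OA raised it by 0.16 without BBR (edgeR adjusted p = 0.0250) and by 0.49 with BBR (edgeR adjusted p = 2.11e-06), and the former was lost under upper-quartile scaling (0.102) and without control replicate 1, control replicate 2, OA replicate 1 or OA replicate 3. Acadvl shares 2119 bases with Dvl2 on the opposite strand, whether counting used the strand was not given in the sources used here, and its estimated counts were fractional in all 12 libraries, unlike those of the other 9 genes. Dvl2, at 12.2 to 20.0 CPM, rose with BBR alone (log2 change 0.35, edgeR adjusted p = 0.00240) and gave -0.04 with BBR in the presence of OA (edgeR adjusted p = 0.856). The part of Dvl2 reads in the counts of Acadvl was not tested.

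Acadm (ENSMUSG00000062908, chr3:153922357-153944632, minus strand, protein-coding) had 213, 226 and 233 CPM in control, 223, 243 and 264 CPM with OA, 255, 278 and 276 CPM with BBR, and 245, 266 and 254 CPM with BBR+OA. The BBR libraries lay above the control libraries, while OA overlapped every other group. BBR raised Acadm by 0.27 on the log2 scale without OA (SE 0.050, edgeR adjusted p = 6.04e-04), and in the presence of OA gave 0.06 (95% interval -0.06 to 0.19, edgeR adjusted p = 0.611). No neighbours in the order of its levels were called different, and OA changed it neither without nor with BBR by a called amount (0.13 and -0.08).

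The last 2 genes act later in the spiral and were the ones called lower with OA, both without and with BBR. Hadha (ENSMUSG00000025745, chr5:30118304-30155162, minus strand, protein-coding) encodes the alpha subunit of the trifunctional protein, which hydrates and oxidizes long-chain intermediates. It had 225, 229.7 and 228 CPM in control, 176, 184 and 179 CPM with OA, 302, 287 and 285 CPM with BBR, and 253, 272 and 248 CPM with BBR+OA. The 4 groups did not overlap, in the order OA, control, BBR+OA and BBR, and each neighbour was called different from the next. BBR raised Hadha by 0.36 (SE 0.044, edgeR adjusted p = 1.51e-05) without OA and by 0.52 (SE 0.049, edgeR adjusted p = 2.44e-05) with OA. OA lowered it, with log2 changes of -0.34 (SE 0.045, edgeR adjusted p = 3.86e-05) without BBR and -0.18 (SE 0.046, edgeR adjusted p = 0.00708) with BBR.

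Acaa2 (ENSMUSG00000036880, chr18:74779197-74806208, plus strand, protein-coding) encodes the mitochondrial 3-ketoacyl-CoA thiolase, which cleaves off acetyl-CoA. It had 162, 169 and 173 CPM in control, 101, 95.99 and 111 CPM with OA, 216, 247 and 243 CPM with BBR, and 138, 146 and 152 CPM with BBR+OA. The groups did not overlap, and all neighbours in the order OA, BBR+OA, control and BBR were called different. OA lowered Acaa2 to 0.614 of its control level (log2 change -0.70, SE 0.058, edgeR adjusted p = 3.50e-07) and to 0.618 of its level with BBR (log2 change -0.69, SE 0.055, edgeR adjusted p = 2.82e-07). BBR raised it 1.41-fold both without OA (log2 change 0.49, SE 0.053, edgeR adjusted p = 4.25e-06) and with OA (log2 change 0.50, SE 0.059, edgeR adjusted p = 2.08e-04). Acaa2 was the only one of the 10 genes called lower with both agents than in control (log2 change -0.21, SE 0.047, edgeR adjusted p = 0.00161).

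Read by comparison, BBR without OA raised 9 of the 10 genes and lowered none, where 13.2% of the 12555 genes tested were called higher and 14.5% lower. Slc25a20 was the exception. The 10 genes were chosen with earlier results of these data known, so the shares of all genes are given for scale only. The median log2 change of the 10 genes was 0.34, and that of all genes tested was -0.00085. In 9 of the 10 the BBR libraries all lay above the control libraries, where 41.5% of genes tested did not overlap in either direction. With OA present, BBR raised 8 of the 10 and lowered none, where 1.95% of 12278 genes were called higher and 2.63% lower, and Cpt1b and Acadm did not pass. The median was 0.49 for the 10 genes and -0.00031 for all genes. Of the 10, 9 did not overlap, against 23.8% of genes tested in either direction. The changes were modest, since none of the 10 genes reached a 2-fold change with BBR in either comparison.

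OA without BBR raised Cpt1a, Acadl and Acadvl and lowered Hadha and Acaa2, and the other 5 were not called. Over all 12418 genes tested, 21.3% were called higher and 21.5% lower. OA in the presence of BBR raised Cpt1a, Acadl and Acadvl and lowered Hadha and Acaa2 as well, where 20.1% of 12416 genes were called higher and 18.8% lower. These comparisons take their libraries from the same 4 groups, so they are not independent of each other or of the BBR comparisons. The shares of the 10 genes called with OA were near those of all genes in these libraries. With both agents against control, 9 were higher and only Acaa2 was lower, where 21.6% of 12471 genes were called higher and 22.2% lower, and Cpt1a, Cpt1b and Acadl reached 2-fold. OA and BBR were compared with each other to place the groups in order, and differed in 6 of the 10 genes, beside 41.0% of 12376 genes in either direction.

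**Figure D2:**
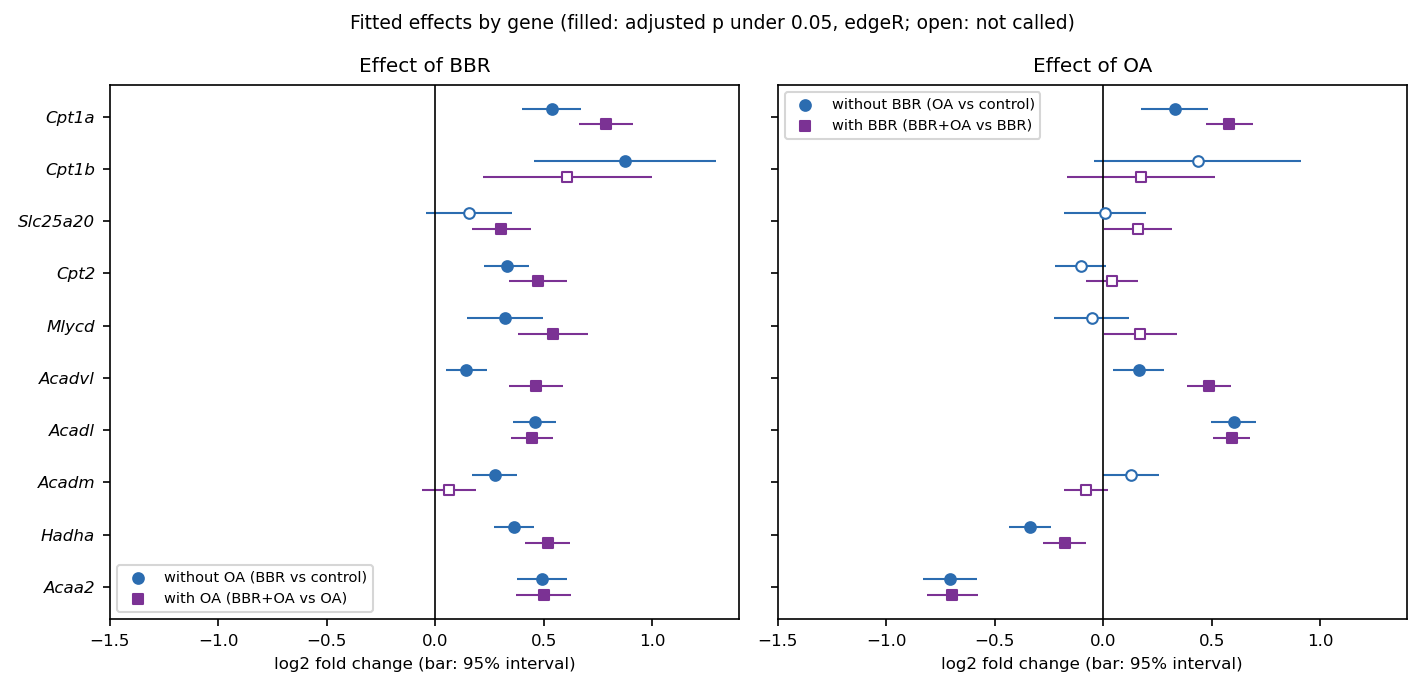
Log2 fold changes of the 10 genes for BBR (left) and OA (right), each without the other agent (circles) and with it (squares). Bars are 95% intervals, and filled symbols passed an adjusted p of 0.05 in edgeR. The fitted BBR effects lie above 0 for all 10 genes, from 0.06 to 0.87, but the intervals of Slc25a20 without OA and Acadm with OA cross 0. The OA effects run from -0.70 for Acaa2 to 0.60 for Acadl.

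Whether the BBR effect itself differed between cells with and without OA was tested with the interaction term over all 12 libraries. Only Acadvl passed, with a BBR effect greater by 0.33 on the log2 scale in the presence of OA (SE 0.073, edgeR adjusted p = 0.00573), where 6.87% of 12742 genes were called in that direction and 5.31% in the other. The term was 0.26 for Cpt1a (edgeR adjusted p = 0.0837), 0.17 for Hadha (0.0912) and -0.20 for Acadm (0.123), and none of these passed. Cpt1a passed in 5 of the alternative fits, among them those without control replicate 3 (0.0377), OA replicate 1 (0.0362) or BBR replicate 1 (0.0477), so its side of the threshold rests on single libraries. For Acadm, the effect of BBR was called without OA and not with OA, but the difference between the effects was not called. It was called without OA replicate 1 (log2 value -0.26, edgeR adjusted p = 0.0362). With the replicate number as a block, the terms of Cpt1a (0.0227), Acadm (0.0136) and Hadha (0.0373) passed.

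How alike the 10 genes were in their levels was described with Pearson's r of log2 CPM over the 12 libraries, which share the 4 groups. Of the 45 pairs, 42 had a positive r, with a median of 0.63. Cpt1a, Acadl and Acadvl formed one set (r = 0.92 for Cpt1a and Acadl, 0.91 for Acadl and Acadvl, 0.90 for Cpt1a and Acadvl). Cpt2 and Mlycd were alike at 0.90, and Hadha and Acaa2 at 0.87. The lowest value, -0.30, joined Acadl to Acaa2. Among 9715 genes with a mean of at least 5 CPM, the closest to Cpt1a were the acyl-CoA thioesterase gene Acot2 (0.98), Tom1l2 (0.97) and the mitochondrial ADP/ATP carrier gene Slc25a4 (0.97). The closest to Cpt1b were Slc30a9 (0.95), F2rl1 (0.93) and Washc4 (0.93). No member was the closest gene of another. Hadha was closest to its partner Hadhb, at 0.96.

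**Figure D3:**
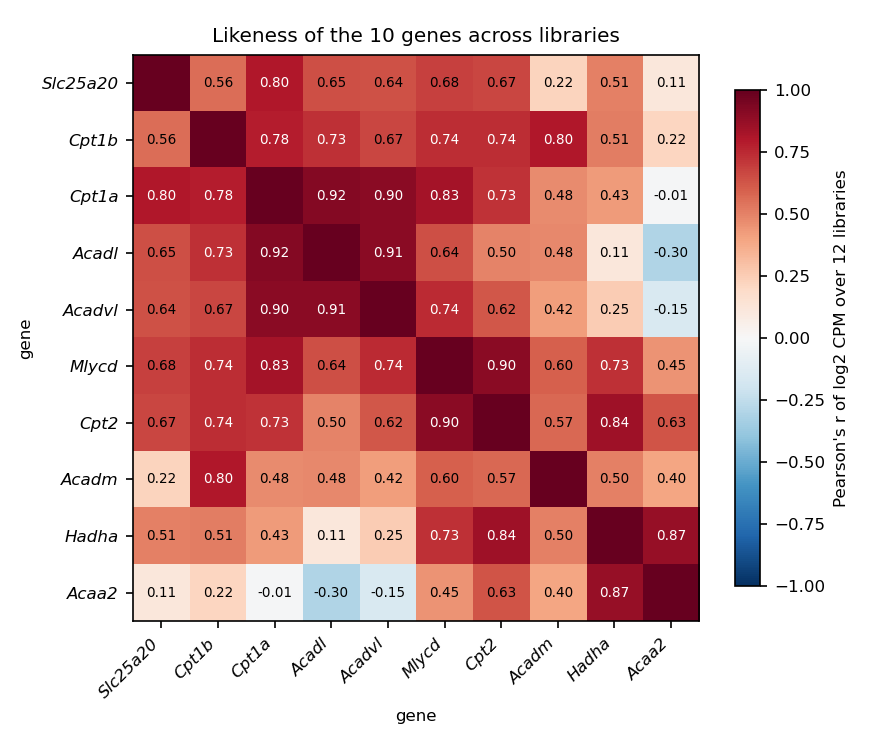
Pearson's r of log2 CPM for each pair of the 10 genes over 12 libraries, on a scale from -1 to 1 with red positive and blue negative. Cpt1a, Acadl and Acadvl form a block of 0.90 to 0.92, and the lowest value is -0.30, between Acadl and Acaa2.

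The wider pathway was read from lists of genes that are not among the 10. The spiral partners carry the remaining steps. Hadhb, which encodes the beta subunit of the trifunctional protein, had 98.3, 94.3 and 104 CPM in control, 85.4, 81.1 and 86.1 CPM with OA, 138, 130.2 and 125 CPM with BBR, and 115, 118 and 121 CPM with BBR+OA. The groups did not overlap and stood in the same order as for Hadha. BBR raised it by 0.41 without OA (edgeR adjusted p = 1.94e-05) and by 0.49 with OA (edgeR adjusted p = 3.94e-05), and OA lowered it, with log2 changes of -0.23 and -0.15 (edgeR adjusted p = 0.00356 and 0.0194). Of the 4 spiral partners, BBR alone raised Hadhb and lowered Hadh and Echs1, which encode the short-chain hydroxyacyl-CoA dehydrogenase and hydratase. With OA present, BBR raised Hadhb and Hadh and lowered none. Hadh had log2 changes of -0.32 with BBR (edgeR adjusted p = 0.00111) and 0.37 with BBR in the presence of OA (edgeR adjusted p = 0.0110), and its interaction term of 0.70 was called (edgeR adjusted p = 2.51e-04).

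Unlike the 3 members, the other acyl-CoA dehydrogenases were not raised by BBR alone. BBR alone lowered 2 of 5 (Acad10 by a log2 change of -0.36 and Acad9 by -0.30) and raised none, with a list median of -0.13. OA alone lowered 4 of 5 and raised none, with a list median of -0.36. OA in the presence of BBR raised 2 of 5, Acad9 (log2 change 0.27) and Acad11 (0.14), and lowered none. With OA present, BBR raised 1 of 5, Acad11 (log2 change 0.42, edgeR adjusted p = 8.47e-04). The interaction term was called and positive for 4 of the 5, the exception being Acad12.

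BBR raised 4 of the 6 auxiliary and electron transfer genes in the presence of OA and 2 of the 6 without it, and lowered none. The auxiliary enzymes Eci2 and Decr1, which handle the double bonds of unsaturated acyl-CoA, had 38.1 and 39.96 CPM in control on average, 38.4 and 28.8 CPM with OA, 45.5 and 42.9 CPM with BBR, and 59.8 and 47.9 CPM with BBR+OA. In the presence of OA, BBR raised them by 0.63 and 0.73 on the log2 scale (edgeR adjusted p = 1.49e-05 and 2.58e-05), and Eci1 was not called. Etfb and Etfdh, which pass electrons from the dehydrogenases to the respiratory chain, rose with BBR in the presence of OA by 0.42 and 0.40 (edgeR adjusted p = 7.91e-04 and 2.08e-04). Without OA, BBR raised Eci2 (0.26) and Etfa (0.16) alone among these 6 genes. The interaction term was called and positive for Decr1 (0.63), Etfb (0.48), Etfdh (0.42) and Eci2 (0.38).

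The enzymes that make malonyl-CoA and the subunits of AMPK, the kinase that inhibits them, did not move together. Acaca, the acetyl-CoA carboxylase of fatty acid synthesis, had 211, 178 and 262 CPM in control, 89.4, 75.3 and 98.4 CPM with OA, 85.8, 73.3 and 98.3 CPM with BBR, and 71.1, 72.6 and 73.7 CPM with BBR+OA. All control libraries lay above all others. BBR lowered it to 0.398 of control (log2 change -1.33, edgeR adjusted p = 3.61e-07), OA gave -1.30 (edgeR adjusted p = 8.46e-07), and BBR in the presence of OA gave -0.28 (edgeR adjusted p = 0.0513). Acacb, whose product lies at the mitochondrial surface, fell with OA (log2 change -0.62, edgeR adjusted p = 2.63e-05) and rose with BBR in the presence of OA (0.42, edgeR adjusted p = 0.0336). Of the 8 genes, BBR alone lowered 3 and raised none (Acaca, Prkaa2 and Prkag2), and with OA it raised Acacb alone. The interaction term was called and positive for Acaca (1.06, edgeR adjusted p = 3.52e-04) and Prkaa2 (0.43, edgeR adjusted p = 0.00275), and for no other of the 8.

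Of the 6 carnitine shuttle partners tested, BBR raised 4 and lowered 1 without OA, with a list median of 0.29, and raised 3 and lowered none with OA, with a list median of 0.25. Slc22a5, the high-affinity carnitine importer of the cell surface, rose with BBR from 12.5 to 18.7 CPM (log2 change 0.60, edgeR adjusted p = 1.36e-04) and by the same 0.60 in the presence of OA (edgeR adjusted p = 0.00226). Slc22a4, a related transporter, rose with BBR alone (0.57, edgeR adjusted p = 0.00505), and Aldh9a1, an enzyme of carnitine synthesis, rose by 0.27 and 0.49. Bbox1, the last enzyme of carnitine synthesis, was low, at 4.26, 2.86 and 3.37 CPM in control and 1.38, 1.29 and 2.10 CPM with BBR, and fell by 1.12 on the log2 scale with BBR alone (edgeR adjusted p = 0.00174). In the presence of OA, BBR gave 0.24 for Bbox1 (edgeR adjusted p = 0.596) and -0.35 for Slc22a4 (0.442). The interaction term was called and positive for Bbox1 (1.37, edgeR adjusted p = 0.00963) and Aldh9a1 (0.23, 0.0170). It was called and negative for Slc22a4 (-0.91, edgeR adjusted p = 0.0286). OA raised none of the 6 and lowered Crat alone, and OA in the presence of BBR raised 2 and lowered 3. Slc16a9 and Slc25a29 did not pass the filter on low counts, and Tmlhe was not analysed here.

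**Figure D4:**
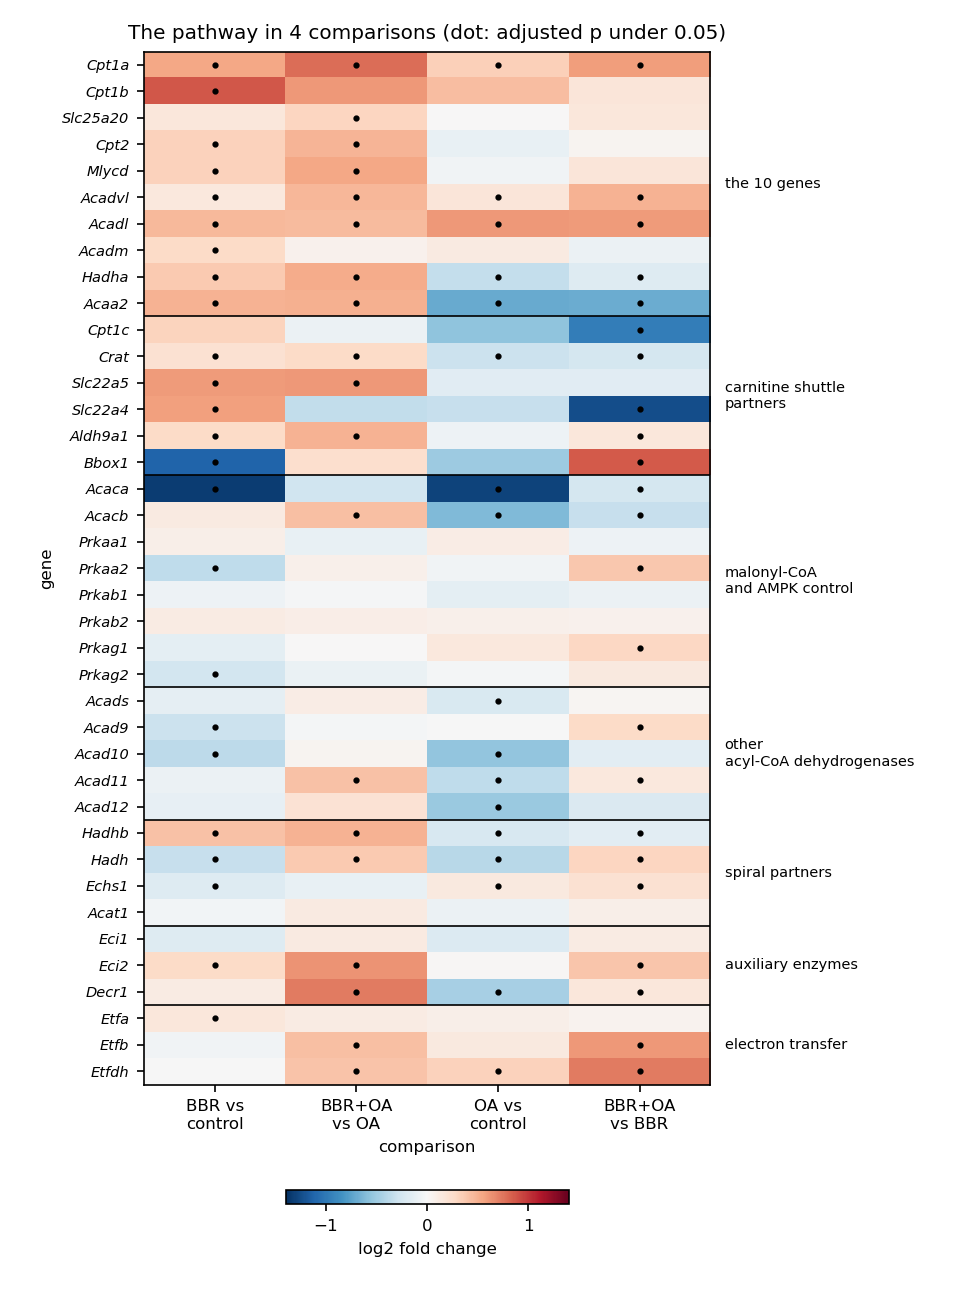
Log2 fold changes (colour, red higher and blue lower in the first-named group) of the 10 genes and 29 partner genes in 4 comparisons, grouped by role, with a dot where the edgeR adjusted p was under 0.05. The 10 genes are red in both BBR columns, without a dot for Slc25a20 in the absence of OA and for Cpt1b and Acadm in its presence. Of the 10, Hadha and Acaa2 are blue in both OA columns, as are partner genes that include Hadhb, Crat, Acaca and Acacb.

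The cell content of the libraries was checked with marker lists. In bulk RNA, fewer cells of a type and less RNA per cell cannot be told apart. Of the 10 hepatocyte markers 9 were found in the files, all above 0 in every library, from Tat at 1.85 to 8.16 FPKM to Alb at 13627 to 16681 FPKM. Their summed level, most of it Alb, was 16900 to 17407 FPKM in control, 19364 to 19880 FPKM with OA, 17355 to 18628 FPKM with BBR and 20099 to 20701 FPKM with BBR+OA. BBR alone raised 3 of the 9 (Ttr, Serpina1a and Cyp2e1) and lowered 4 (Apob, Hnf4a, Asgr1 and Tat), and in the presence of OA it lowered Asgr1 and raised none. OA raised 5 of the 9 and lowered none without BBR, and raised 4 and lowered 2 with BBR. The 9 Kupffer cell markers summed to 78.1 to 92.2 FPKM in control, 70.7 to 86.5 FPKM with OA, 109 to 143 FPKM with BBR and 71.5 to 85.4 FPKM with BBR+OA, highest with BBR alone. Most of each sum was Cd68, at 55.6, 73.0 and 69.0 FPKM in control and 86.8, 122 and 113 FPKM with BBR. Between BBR and control 1 of the 9 was higher, Cd68, and 1 lower, Cd5l. The 4 cholangiocyte markers summed to 5.06 to 5.70 FPKM in control and 7.10 to 11.2 FPKM with BBR, with Krt19 and Epcam higher and Krt7 and Cftr at no more than 0.17 FPKM. Between OA and control 6 of the 9 Kupffer cell markers were lower and 2 higher, and between BBR+OA and OA none was called in edgeR or had an unadjusted p under 0.05. Endothelial and stellate cell markers summed to at most 15.3 and 5.21 FPKM in any library. BBR without OA raised 3 of the 6 endothelial markers and none of the stellate markers. With OA present, BBR changed none of the 5 endothelial markers tested by a called amount, and none of the stellate markers. The part of these shifts in the changes of the 10 genes was not tested.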

How the data were processed

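RNA sequencing of 12 libraries was analysed, 3 in each of 4 groups taken from the sample titles. The authors deposited FPKM values (fragments scaled by length and depth) and estimated counts for every feature of a library. The submitters' processing notes name mm10 as the genome build. The aligner, the counting program and its use of strand are not given in the sources used here. The estimated counts that the authors deposited were rounded to whole numbers. Coordinates are from GENCODE M21 on GRCm38, the assembly of mm10.

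With edgeR 4.0.16 in R 4.3.3, a model of the 6 libraries concerned was fitted for each comparison. Genes were filtered by filterByExpr (minimum count 10), scaled by TMM, and tested two-sided by quasi-likelihood, and p-values were adjusted after Benjamini and Hochberg over all genes tested. The interaction was fitted on all 12 libraries. The fits were tested on simulated counts. FPKM values were described and not tested. Counting limits cover counting error only. The 10 genes and the gene lists were chosen with earlier results of these data known. All genes of the lists are counted, and at most 4 of those called per list are given with values, by the size of their change. For likeness, the 3 genes with the highest correlation to Cpt1a and Cpt1b are named, and a member where it was closest to another. Hadhb, Hadh and Acacb were also followed across comparisons, a choice made after their values were seen, as were the markers singled out. The alternatives were DESeq2 1.42.0, other scalings, no filter, a single fit of all libraries, a 2-fold rule, a replicate block and leaving out each library.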

Additional observations from a re-analysis of the deposited data

Results flagged for a closer look

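The effect of BBR on Acadvl differed between cells with and without OA. BBR changed it by 0.14 on the log2 scale without OA and by 0.46 with OA, and the interaction term was 0.33 (SE 0.073, edgeR adjusted p = 0.00573). All 3 BBR+OA libraries lay above the other 9. The opposite-strand neighbour Dvl2, which shares 2119 bases with Acadvl, had an interaction term of -0.38 (edgeR adjusted p = 0.0360). The part of its reads in the counts of Acadvl was not tested. Groups of 3 libraries were too small to be screened for single outlying values.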

How the results depend on the processing

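Over the named values of the 10 genes, 851 alternative values kept their direction and their side of the threshold, 20 gained a call, 19 lost one, and none reversed. Requiring a 2-fold change as well left 0 of the 10 genes called for BBR against control, 0 for BBR+OA against OA, 0 for OA against control, 0 for BBR+OA against BBR, 0 for the interaction, 3 for BBR+OA against control and 1 for OA against BBR (edgeR). The number of the 10 genes with a called interaction was 1, and it became 2 with no filter on low counts and ran from 1 to 3 when single libraries were left out. It was 2 without control replicate 3, 3 without OA replicate 1 and 2 without BBR replicate 1. The replicate block gave 4, with 3 higher and 1 lower, and it moved the count of all genes called for BBR+OA against OA from 563 to 1333. Libraries with the same number had correlations of their deviations from -0.027 to 0.16 over 18 pairs (median 0.071), with 4 above 0.1. Over 36 pairs of different number the correlations ran from -0.15 to 0.091 (median -0.039), with 0 above 0.1. For 9 of 12 libraries, the most correlated library of another group had the same number. Pairing was to be taken only if all same-number pairs exceeded 0.1, so the main fits did not pair the samples. Whether the numbers mark a weak pairing was not settled. That count of 563 was 249 without OA replicate 2, and leaving out BBR+OA replicates 1, 2 and 3 in turn gave 373, 230 and 216. The count of interactions over all genes, 1551, was 1027 without OA replicate 2 and 1028 without BBR replicate 2. Cpt2 was called lower with OA under upper-quartile scaling (log2 change -0.15, edgeR adjusted p = 0.0382). Acadm was called higher with OA under the block and without OA replicate 1. The causes were not tested. Depth limits Cpt1b most, at 31 to 87 counts per library.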
